A study of Mus musculus with 10 samples.

Results

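To follow bone morphogenetic protein (BMP) signalling at the level of its own genes, 10 genes of the pathway were analysed by name in bEnd.3 cells, a mouse brain endothelial cell line, after loss of cell-surface mucins. They were the receptors *Bmpr2* and *Bmpr1a*, the signal transducers *Smad1*, *Smad3* and *Smad4*, the inhibitors *Smad6* and *Smad7*, and the target genes *Id1*, *Id2* and *Id3*. They were picked by name, with earlier results of these data known, and each had 1 row among the 27024 rows with a gene name. The cells were wild type and were given either saline (5 samples, replicates 1, 2, 3, 4 and 5) or an equal volume of 5 nM StcE (5 samples, replicates 1, 2, 3, 5 and 6) for 16 h in growth medium that contained serum. StcE is a bacterial protease that cuts mucin-domain glycoproteins, which carry dense O-linked sugars. Poly(A) RNA was sequenced in bulk, and the values are fragments per kilobase of exon, scaled to sequencing depth (FPKM). All samples came from 1 cell line, and nothing states that replicates were separate cultures, so p-values here measure the spread between these samples, which may be technical.

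BMP ligands bind a complex of type 2 receptors, such as BMPR2, and type 1 receptors, such as BMPR1A and, in endothelium, ALK1 (gene *Acvrl1*). The type 1 receptor phosphorylates SMAD1, SMAD5 and SMAD9, whereas TGFβ and activin receptors phosphorylate SMAD2 and SMAD3, and both sets enter the nucleus with SMAD4. SMAD6 and SMAD7 are feedback inhibitors whose genes are induced by the pathway, and the *Id* genes are its classic early targets. ID proteins lack a DNA-binding region and hold basic helix-loop-helix (bHLH) transcription factors off DNA. In endothelial cells the pathway is known for its roles in vessel growth, quiescence and junctions.

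*Bmpr2* and *Id2* were lower after StcE, and the other members did not pass the test. Of the 10 members, 9 had a mean FPKM of at least 1 and were tested with limma on log2(FPKM + 1), with p-values adjusted over all genes tested by the Benjamini-Hochberg method. Of these 9, 2 passed an adjusted p of 0.05 (22.2%), beside 11.9% of the 11062 genes tested. Both were lower, beside 6.41% of all genes that passed and were lower and 5.52% that passed and were higher. The groups of saline and StcE samples overlapped for every member, whereas 10.7% of all genes tested had groups that did not overlap. By exact two-sided permutation, 4 of the 9 (*Bmpr2*, *Smad7*, *Id2* and *Id3*) had an unadjusted p under 0.05, beside 25.5% of all genes tested (25.8% after scaling to total fragments). The median log2 fold change (StcE minus saline) of the 9 members was 0.02, beside a median of -6.6e-04 over all genes tested. With the minimum lowered to a mean FPKM of 0.1, *Id2* alone passed, beside 6.99% of all genes. *Id2* alone also passed in the 8 samples whose replicate numbers both groups share when the number was a block, beside 3.15%. Those 8 samples leave out saline replicate 4 and StcE replicate 6. With so few members, these counts say nothing about the set as a whole.

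**Figure D1:**
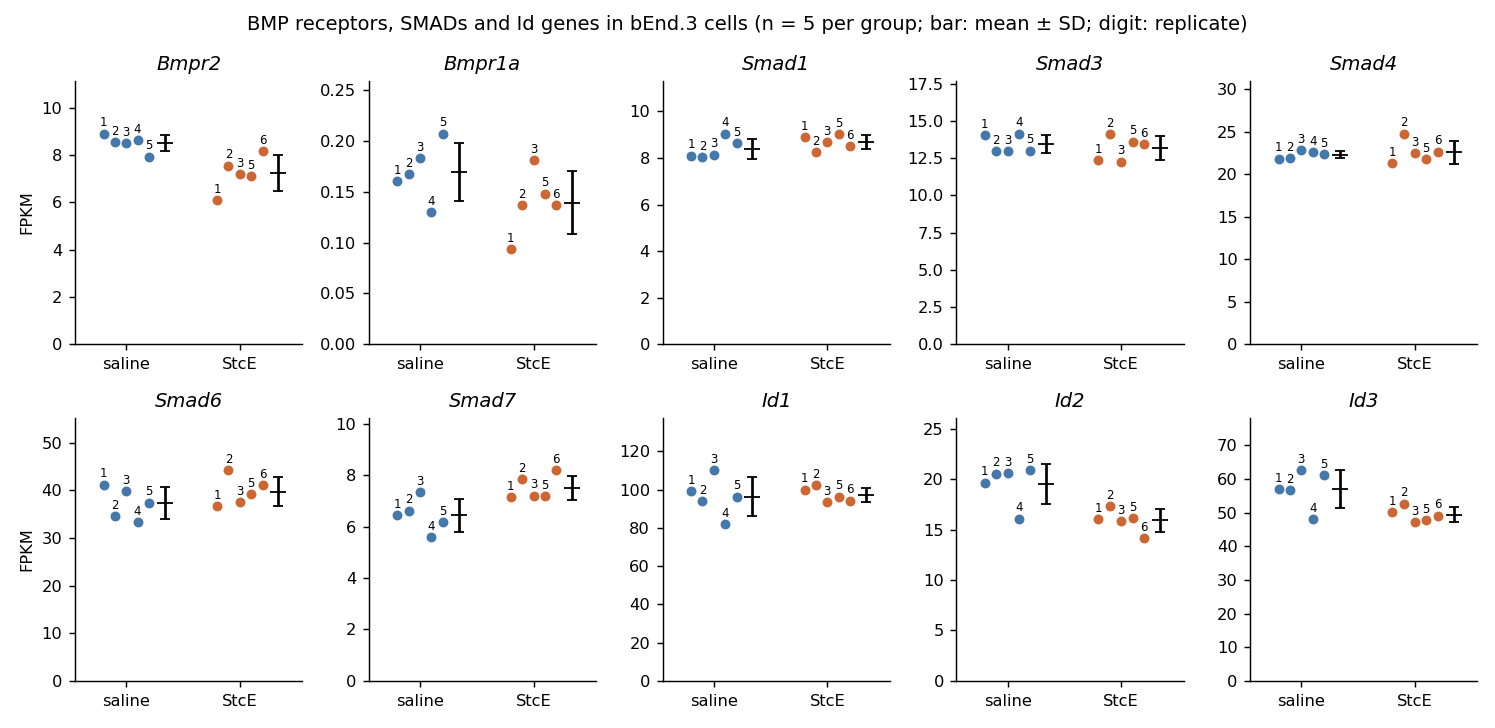
FPKM of the 10 genes in each sample, with 1 panel per gene and a vertical axis that starts at 0. Blue points are saline samples and orange points StcE samples, the digit above a point is its replicate number, and the black bar is the mean ± SD (n = 5). Saline replicate 4 is the lowest saline sample for *Bmpr1a*, *Smad6*, *Smad7*, *Id1*, *Id2* and *Id3*, and for *Id2* it lies among the StcE samples.

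Stretches of sequence before the transcription start of *Bmpr2*, *Id2* and *Id3*, the members with lower means after StcE whose intervals leave out 0, are shown here because SMAD complexes are known to bind short motifs near their targets. Windows of 250 bases before the RefSeq start were searched on both strands for 5 motifs in 7 of the members, and windows of *Smad4*, *Smad7* and *Id1* were not used here. The motifs were GGCGCC, a GC-rich element of BMP-responsive genes, CAGAC and GTCT, SMAD-binding elements of which GTCT, read on the other strand, is the last 4 letters of CAGAC, the palindrome GTCTAGAC, which contains GTCT, and CANNTG, the E-box that bHLH factors bind. GGCGCC was present in 3 of the 7 windows, those of *Bmpr2*, *Bmpr1a* and *Id2*, and in 9.59% of 32851 windows of the same length. CAGAC was present in *Id3* alone of the 7, with 2 matches, and in 42.2% of all windows. GTCT was present in 4 of the 7 and in 82.9% of all windows, CANNTG in 1 of the 7 (*Id2*) and in 66.2%, and GTCTAGAC in 0 of the 7 and in 0.167%. The 32851 windows were not matched to those of the members in base composition, so a count set beside their share is a description only. A match is a description of letters and not evidence of a site in use. The runs of 30 bases around the matches are given 5′ to 3′ on the strand of the gene, from RefSeq sequence on build GRCm38.p6, with the match in capitals.
Bmpr2, GGCGCC at -105, chr1:59764162-59764191, plus strand: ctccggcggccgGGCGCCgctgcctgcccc
Id2, GGCGCC at -231, chr12:25096306-25096335, minus strand: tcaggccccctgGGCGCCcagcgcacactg
Id2, CANNTG at -196, chr12:25096271-25096300, minus strand: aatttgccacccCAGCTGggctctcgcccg
Id3, CAGAC at -167, chr4:136143642-136143671, plus strand: ctgtcctcggcgtCAGACcagcctaaggaa
Id3, CAGAC on the other strand at -68, chr4:136143741-136143770, plus strand: tggacccttggcgGTCTGttttgaataagg
Positions are of the first base of the match, with the base before the RefSeq start counted as -1. In the GENCODE annotation, whose first exons begin further upstream, the *Bmpr2* run and both *Id3* runs lie in exons of their own gene, and both *Id2* runs lie inside the *Id2* gene and outside its exons.

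Among the receptors, *Bmpr2* was lower after StcE and *Bmpr1a* was nearly absent. *Bmpr2* (ENSMUSG00000067336.6; chromosome 1, 59763400 to 59879014, plus strand) encodes the type 2 receptor through which BMP9 and BMP10 act on endothelium. It measured 8.91, 8.55, 8.52, 8.63 and 7.94 FPKM in saline replicates 1 to 5, and 6.10, 7.56, 7.21, 7.11 and 8.17 FPKM in StcE replicates 1, 2, 3, 5 and 6. In 4 of 5 StcE samples it was below the lowest saline sample, and StcE replicate 6 lay within the saline range. Its mean fell from 8.51 ± 0.353 to 7.23 ± 0.753 FPKM (SD, n = 5 each). The log2 fold change was -0.21 (SE 0.0580), with an adjusted p of 0.0367 from limma and an exact two-sided permutation p of 0.0159. This call was near the threshold. When each sample was left out in turn it passed in 4 of 10 fits and was lost without saline replicate 1, 2, 3 or 4 or StcE replicate 3 or 5, with adjusted p between 0.0139 and 0.0845. Its log2 fold change in these fits ranged from -0.25 (without StcE replicate 6) to -0.16 (without StcE replicate 1, the lowest sample).

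*Bmpr1a* (ENSMUSG00000021796.15; chromosome 14, 34410734 to 34503341, minus strand), a type 1 receptor for BMP2 and BMP4, had between 0.130 and 0.207 FPKM in saline and between 0.0937 and 0.182 FPKM in StcE. Only 14 to 40 fragments per sample lay behind these values, and the groups overlapped. Of all genes with a mean FPKM from 0.1 to under 1, 2.34% had groups that did not overlap. The exact two-sided permutation p was 0.151, so no difference was shown, and the part of the low depth in this was not tested. A share of 4.57% of its exon length overlaps the gene *Gm17110* on the opposite strand, and whether the authors counted by strand is not given in the sources used here. *Acvr1*, another BMP type 1 receptor, had a mean of 7.38 FPKM over all samples, 47.7 times that of *Bmpr1a*. *Acvrl1*, the endothelial type 1 receptor, had a mean of 73.6 FPKM, 476 times that of *Bmpr1a*, and *Bmpr1b* was at or near 0 in every sample. Among BMP type 1 receptors, the cells thus expressed *Acvrl1* most and *Bmpr1a* and *Bmpr1b* hardly at all, in both groups.

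None of the receptor-activated SMADs or the common partner *Smad4* passed the test, and their intervals were narrow. *Smad1* (ENSMUSG00000031681.16; chromosome 8, 79338395 to 79399518, minus strand), the transducer of BMP receptors, measured 8.10, 8.05, 8.15, 9.04 and 8.65 FPKM in saline and 8.89, 8.25, 8.69, 9.01 and 8.50 FPKM in StcE. Saline replicate 4 was the highest of all samples for *Smad1*, and the 2 groups overlapped. The log2 fold change was 0.04, with a 95% interval of -0.04 to 0.12 and an adjusted limma p of 0.498. *Smad3* (ENSMUSG00000032402.12; chromosome 9, 63646767 to 63757994, minus strand), a transducer of TGFβ and activin receptors, ranged from 13.0 to 14.1 FPKM in saline and from 12.3 to 14.1 FPKM in StcE. Its log2 fold change was -0.03 (95% interval -0.12 to 0.07, adjusted p = 0.733 from limma). *Smad4* (ENSMUSG00000024515.13; chromosome 18, 73639009 to 73703780, minus strand) ranged from 21.9 to 22.8 FPKM in saline and from 21.3 to 24.8 FPKM in StcE, with a log2 fold change of 0.02 (95% interval -0.06 to 0.10, adjusted p = 0.809 from limma). *Smad4* had the smallest spread of the members among saline samples, with a coefficient of variation of 1.95%. A log2 fold change as large as that of *Bmpr2*, in either direction, lies outside the 95% intervals of all 3 genes.

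The inhibitory SMADs had higher means after StcE, and neither passed the test. *Smad7* (ENSMUSG00000025880.11; chromosome 18, 75367529 to 75395935, plus strand), which blocks both the BMP and the TGFβ branch, measured 6.46, 6.62, 7.36, 5.58 and 6.16 FPKM in saline and 7.15, 7.84, 7.21, 7.20 and 8.19 FPKM in StcE. All 5 StcE samples were above the saline mean, 2 were above the highest saline sample, and saline replicate 3 lay within the StcE range. The means were 6.44 ± 0.649 and 7.52 ± 0.471 FPKM (SD, n = 5 each), and the log2 fold change was 0.20 (95% interval 0.07 to 0.33). The adjusted p from limma was 0.0504 and the exact two-sided permutation p was 0.0317. When each sample was left out in turn *Smad7* passed in 1 of 10 fits, without saline replicate 3 (adjusted p = 0.0189 from limma), with adjusted p up to 0.0975 in the others. *Smad6* (ENSMUSG00000036867.7; chromosome 9, 63953076 to 64022059, minus strand), which acts mainly on the BMP branch, measured 41.2, 34.5, 39.9, 33.3 and 37.4 FPKM in saline and 36.7, 44.2, 37.5, 39.2 and 41.1 FPKM in StcE. The samples of the 2 groups were interleaved, with a log2 fold change of 0.09 (95% interval -0.05 to 0.23, adjusted p = 0.381 from limma). *Smad6* was the more abundant inhibitor, with a mean over all samples 5.52 times that of *Smad7*.

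Of the 3 *Id* genes, *Id2* was lower after StcE, *Id3* had a lower mean that did not pass the test, and *Id1*, the most abundant, had nearly the same mean in both groups. *Id2* (ENSMUSG00000020644.9; chromosome 12, 25093799 to 25097140, minus strand), whose upstream runs are printed above, measured 19.7, 20.6, 20.6, 16.1 and 20.9 FPKM in saline replicates 1 to 5. In StcE replicates 1, 2, 3, 5 and 6 it measured 16.0, 17.3, 15.9, 16.2 and 14.2 FPKM. All StcE samples were below 4 of the 5 saline samples, and saline replicate 4 stood with the StcE samples. Its mean fell from 19.6 ± 1.99 to 15.9 ± 1.13 FPKM (SD, n = 5 each), which is 18.7% lower, with a log2 fold change of -0.28 (SE 0.0689), an adjusted limma p of 0.0242 and an exact two-sided permutation p of 0.0238. Without saline replicate 4 the log2 fold change was -0.34 and the adjusted limma p 0.00152. The call was lost without saline replicate 1, 2, 3 or 5 or StcE replicate 3, with adjusted p up to 0.0567.

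*Id3* (ENSMUSG00000007872.3; chromosome 4, 136143497 to 136145755, plus strand) measured 56.9, 56.6, 62.5, 48.0 and 61.2 FPKM in saline and 50.2, 52.7, 47.3, 47.7 and 49.1 FPKM in StcE. Here too saline replicate 4 lay among the StcE samples, and the other 4 saline samples were above all of them. The means were 57.0 ± 5.69 and 49.4 ± 2.18 FPKM (SD, n = 5 each), with a log2 fold change of -0.20 (95% interval -0.33 to -0.06), an adjusted limma p of 0.0588 and an exact two-sided permutation p of 0.0317. When each sample was left out in turn *Id3* passed in 1 of 10 fits, without saline replicate 4 (adjusted p = 0.00348 from limma), with adjusted p up to 0.130 in the others. *Id1* (ENSMUSG00000042745.9; chromosome 2, 152736251 to 152737410, plus strand) measured 99.4, 94.2, 110.0, 81.8 and 96.3 FPKM in saline and 100.03, 102.2, 93.6, 96.3 and 94.2 FPKM in StcE. Its StcE samples all lay inside the saline range, which saline replicates 3 and 4 set. The log2 fold change was 0.02 (95% interval -0.12 to 0.16, adjusted p = 0.877 from limma), and without saline replicate 4 it was -0.04.

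**Figure D2:**
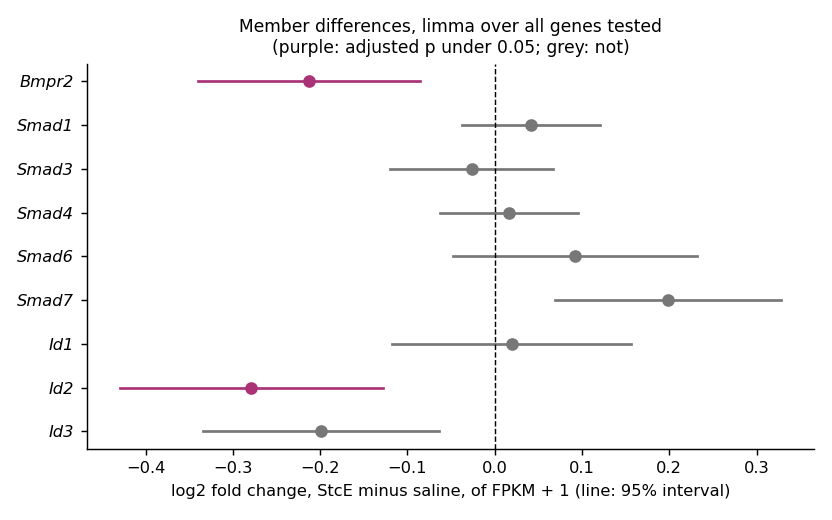
Log2 fold change (StcE minus saline, on FPKM + 1) of the 9 tested genes, with the 95% interval as a line and a dashed line at 0. Purple marks *Bmpr2* (-0.21) and *Id2* (-0.28), which passed an adjusted p of 0.05, and grey marks the others, of which the intervals of *Smad7* and *Id3* also leave out 0.

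Saline replicate 4 bears on several of these values. It was the lowest saline sample for *Bmpr1a*, *Smad6*, *Smad7*, *Id1*, *Id2* and *Id3* and the highest for *Smad1* and *Smad3*, and it held 21922475 fragments, the fewest of the saline samples. Across the 10 samples the recovered depth ranged from 21864510 fragments in StcE replicate 1, fewer than in saline replicate 4, to 33147226 in StcE replicate 5. The sources give no batch, so the part of this library in the results was not tested beyond leaving it out. Without it, 2 members passed, *Id2* and *Id3*, both lower, beside 8.64% of all genes, and *Bmpr2* had a log2 fold change of -0.21 as before with an adjusted limma p of 0.0709.

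A ratio of 2 genes within each sample removes what moves both alike. The ratios within the *Id* genes and within the inhibitory SMADs were chosen after the values were seen. They are given as a description, and the permutation p-values computed for them are left out for that reason. Of all 45 ratios between members, 10 had groups that did not overlap. These ratios reuse the same genes, and the share among ratios of all genes was not computed, so the count is a description. *Id2* per *Id1* was 0.198, 0.218, 0.187, 0.197 and 0.217 in saline and 0.160, 0.169, 0.170, 0.168 and 0.150 in StcE. No StcE sample reached the lowest saline sample, and saline replicate 4 was no longer apart. The difference in log2 ratio was -0.30. *Id3* per *Id1* was 0.573, 0.601, 0.568, 0.587 and 0.635 in saline and 0.502, 0.515, 0.505, 0.495 and 0.522 in StcE, again with no overlap. Its difference in log2 ratio was -0.22. Without saline replicate 4 the differences were -0.31 and -0.22.

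The ratio of *Id2* to *Id3* overlapped between the groups, with a difference of -0.08 in log2 ratio. *Smad7* per *Smad6* ranged from 0.157 to 0.192 in saline and from 0.177 to 0.199 in StcE, a difference of 0.11 in log2 ratio. Between the 2 families, *Smad7* per *Id2* ranged from 0.295 to 0.357 in saline and from 0.445 to 0.578 in StcE. *Smad7* per *Id3* ranged from 0.101 to 0.118 in saline and from 0.142 to 0.167 in StcE. Both were without overlap, and both set a gene with a higher mean after StcE against a gene with a lower mean.

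**Figure D3:**
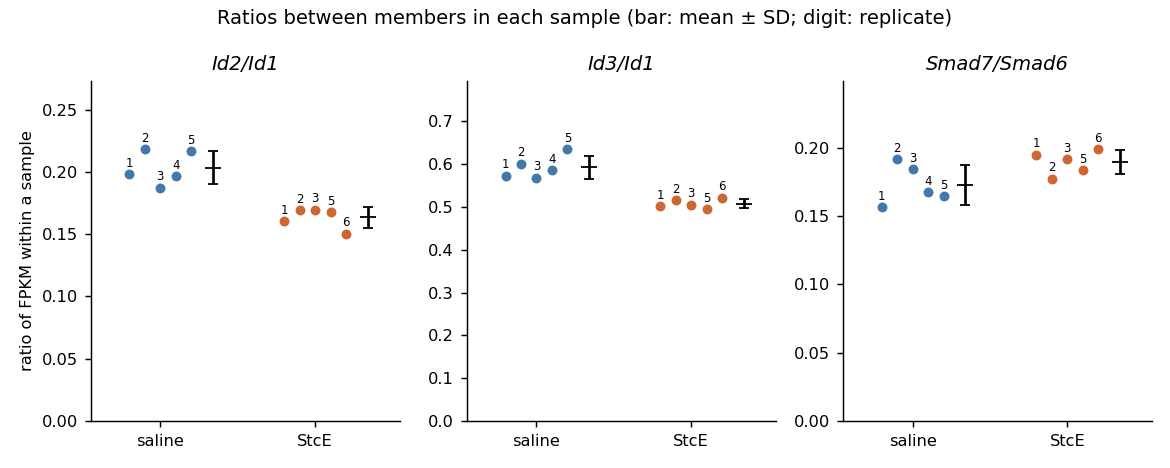
Ratio of FPKM within each sample for *Id2* to *Id1*, *Id3* to *Id1* and *Smad7* to *Smad6*, on axes that start at 0, with saline in blue, StcE in orange, replicate numbers above the points and the mean ± SD as a black bar (n = 5). The first 2 ratios do not overlap between groups (0.187 to 0.218 against 0.150 to 0.170, and 0.568 to 0.635 against 0.495 to 0.522), and the third does.

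The levels spanned from the highly expressed *Id1* to the nearly absent *Bmpr1a*. By mean FPKM over all samples, which is per length of gene, the order was *Id1* (96.8), *Id3* (53.2), *Smad6* (38.5), *Smad4* (22.4), *Id2* (17.7), *Smad3* (13.3), *Smad1* (8.53), *Bmpr2* (7.87), *Smad7* (6.98) and *Bmpr1a* (0.155). The order of neighbours held in all 10 samples except for *Smad1* above *Bmpr2* (7 samples) and *Bmpr2* above *Smad7* (6 samples). *Smad1* and *Bmpr2* overlapped among saline samples, and *Bmpr2* and *Smad7* among StcE samples. In saline every *Bmpr2* value was above every *Smad7* value, whereas after StcE their values overlapped. Of the 3 *Id* genes, *Id1* was 1.82 times as abundant as *Id3* and 5.46 times as abundant as *Id2*.

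After removal of each group's mean, members varied together between samples to different degrees. None of the 45 pairs passed adjustment over the family, and 5 had an unadjusted p under 0.05 for Pearson's r. The closest pair was *Id1* and *Id3* over the 10 samples, with r = 0.905 (exact permutation p within groups = 0.00368, adjusted p = 0.166) and Spearman's rho = 0.879 (exact permutation p = 0.00361, adjusted p = 0.163). Without saline replicates 3 and 4, the samples farthest from the median of *Id1*, r was 0.638. *Smad1* and *Smad7* varied in opposite directions, with r = -0.819 (exact permutation p = 0.00958, adjusted p = 0.216) and rho = -0.758 (exact permutation p = 0.0178, adjusted p = 0.224), and r was -0.663 without saline replicate 4 and StcE replicate 5. *Id2* and *Id3* had r = 0.820 (exact permutation p = 0.0217, adjusted p = 0.294) and rho = 0.782 (exact permutation p = 0.0125, adjusted p = 0.224), and r was 0.763 without saline replicate 4 and StcE replicate 6, the farthest from the median of *Id2*, and 0.434 without saline replicate 4 alone.

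**Figure D4:**
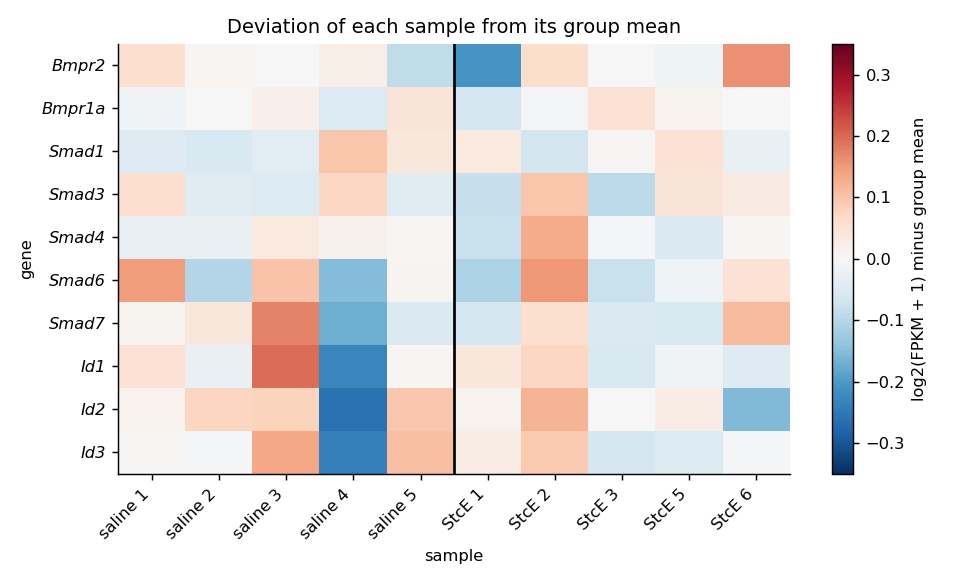
Deviation of log2(FPKM + 1) from the group mean for each gene (rows) and sample (columns), red above and blue below the mean, with a black line between saline and StcE samples. Saline replicate 4 is low for *Id1* (-0.23), *Id2* (-0.26) and *Id3* (-0.24), and saline replicate 3 is high for *Id1* (0.20) and *Smad7* (0.17).

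By the same measure, the genes most like *Id1* among 11061 others were *Rab3d* (r = 0.959), *Sap18b* (0.945), *Malsu1* (0.936), *Ccni* (0.935) and *P4ha3* (0.926). Those most like *Smad6* were *Slc43a2* (r = 0.936), *Lman2* (0.934), *Ddx54* (0.927), *Tgfb1i1* (0.926) and *Fgd1* (0.926). These are the highest of many correlations over the same 10 samples and are given as a description. No other member was among the 5 closest genes of either.

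Other genes of the pathway were read from the same fit in lists drawn up by role. Each gene counted once, 64 of 93 were tested and 21 passed (32.8%, beside 11.9% of all genes), 16 lower and 5 higher. Their median log2 fold change was -0.03. The lists were drawn up with earlier results of these data known. They hold *Tgfbr2*, *Acvrl1*, *Tgfb2* and *Hes1*, which the authors reported as lower, so the shares are a description and no test. Of the endothelial markers, 63.6% passed. Counts of the single lists below rest on few genes, beside 6.41% of all genes that passed and were lower and 5.52% that were higher.

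The ligands and receptors held several of the lower genes. *Bmp4*, the one BMP ligand above the filter, ranged from 88.2 to 92.0 FPKM in saline and from 72.3 to 78.6 FPKM in StcE, without overlap, with a log2 fold change of -0.24 and an adjusted limma p of 1.7e-04. Of 5 TGFβ and activin ligands tested, *Tgfb2* (-0.47) and *Inhbb* (-0.41) were lower, *Tgfb1* (0.18) and *Inhba* (0.24) were higher, and *Gdf11* (-0.02) did not pass. Of 10 other receptors and co-receptors, *Acvrl1* and *Tgfbr2* were lower and none was higher (20% passed, beside 11.9% of all genes). *Acvrl1* ranged from 78.4 to 86.0 FPKM in saline and from 63.8 to 70.0 FPKM in StcE, with a log2 fold change of -0.30 and an adjusted limma p of 2.6e-04. *Tgfbr2*, the type 2 receptor for TGFβ, had a log2 fold change of -0.22 and an adjusted limma p of 0.0194, with overlapping groups. The endothelial co-receptor *Eng* (-0.03), *Acvr1* (-0.04), *Acvr1b* (-0.03) and *Rgmb* (-0.10) did not pass.

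Outside the cell, *Fst*, which encodes the activin and BMP binding protein follistatin, was higher (0.17) and *Fstl1* was lower (-0.11) of 6 antagonists and modulators tested. *Twsg1* (-0.10), *Bmp1* (-0.09), *Tll1* (0.16) and *Bmper* (0.07) did not pass. Inside the cell, neither *Smad2* (0.03) nor *Smad5* (-0.04) passed. Of 14 ubiquitin ligases, phosphatases and other SMAD regulators, 21.4% passed, beside 11.9% of all genes. *Smurf1* (-0.12), a ligase that marks SMAD1 and SMAD5 for degradation, and the SMAD phosphatase genes *Ctdsp1* (-0.14) and *Ctdsp2* (-0.19) were lower and none was higher. The most abundant others, *Fkbp1a* (0.08), *Smurf2* (0.13), *Stub1* (0.0050) and *Wwp1* (-0.01), did not pass. Of 11 nuclear partners, the co-repressor gene *Tgif1* was higher (0.21) and *Zeb1* was lower (-0.11), and *Yy1* (-0.02), *Ski* (-0.06), *Ep300* (-0.03) and *Zfp423* (-0.12) did not pass.

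Of 10 other target genes, 4 were lower and none was higher, beside 6.41% of all genes that passed and were lower and 5.52% that were higher. *Atoh8*, a bHLH gene induced by BMP9 through ALK1, ranged from 4.47 to 5.68 FPKM in saline and from 3.20 to 4.03 FPKM in StcE, with a log2 fold change of -0.44 and an adjusted limma p of 0.00167. *Hey1* (-0.37) and *Hes1* (-0.32), which are also Notch targets, and *Msx1* (-0.27) were lower as well, each without overlap between groups. *Ctgf* (-0.03), *Junb* (0.14) and *Pmepa1* (-0.03), targets of the TGFβ branch, did not pass. Of 7 bHLH factors or partners that ID proteins can affect, *Tcf4* (-0.16) and *Tcf12* (-0.11), which encode E proteins, were lower and *Myc* (0.09) was higher, whereas *Hif1a* (0.06), *Tcf3* (-0.02), *Lyl1* (-0.04) and *Tal1* (0.01) did not pass.

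**Figure D5:**
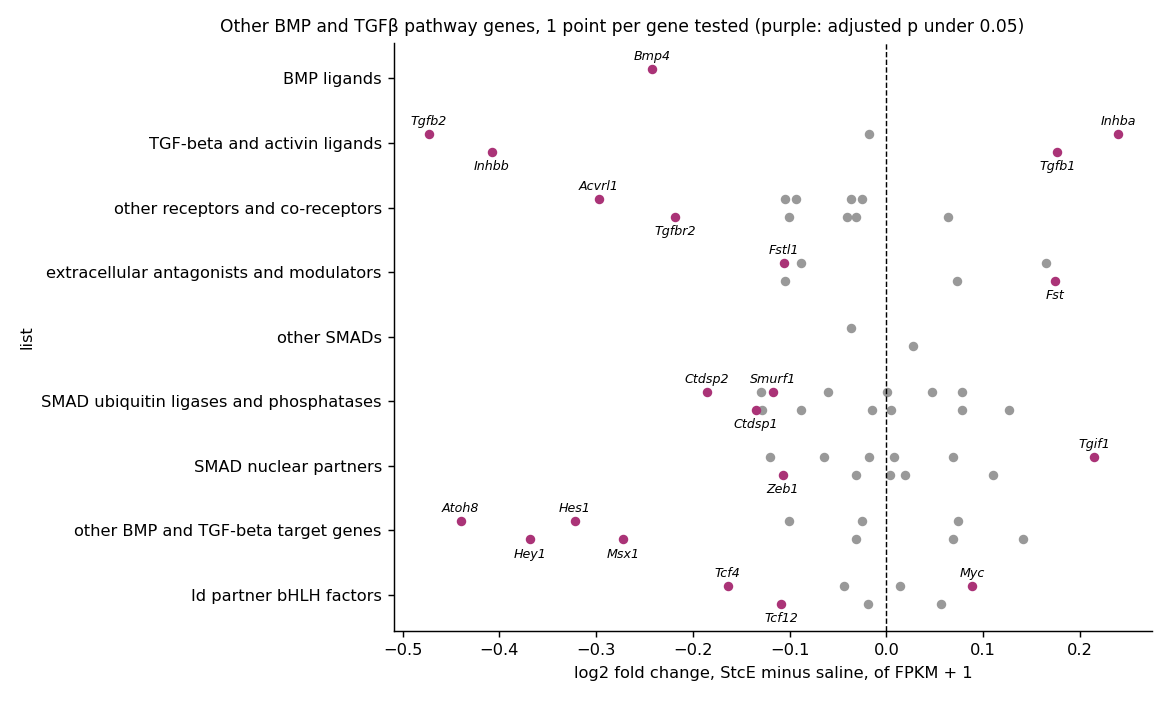
Log2 fold change (StcE minus saline, on FPKM + 1) of other BMP and TGFβ pathway genes, with a dashed line at 0. Each list is 1 row, with 1 point per gene tested in that list. *Skil* and *Bambi* stand in more than 1 list and have a point in each. Purple points with names passed an adjusted p of 0.05 (16 genes lower, 5 higher), and grey points did not.

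The labelled cell type was checked against marker genes. All 11 endothelial markers were expressed, with a summed level of 1886 to 2024 FPKM in saline and 1832 to 1906 FPKM in StcE. Of these, 6 were lower after StcE (*Pecam1*, *Flt1*, *Tek*, *Tie1*, *Esam* and *Erg*), beside 6.41% of all genes tested, and *Egfl7* was higher, beside 5.52%. The calls of *Pecam1*, *Esam*, *Egfl7* and *Erg* were near the threshold (adjusted limma p from 0.0356 to 0.0456). Some markers of the cell type itself thus moved with the treatment, and their part in the results above was not tested. In bulk RNA, fewer cells with a transcript and less of it per cell cannot be told apart. Of other cell types, the summed pericyte and smooth muscle markers lay between 2.20 and 5.37 FPKM in saline and between 2.88 and 4.63 FPKM in StcE, nearly all of it *Acta2*. Fibroblast markers summed to 1.22 to 1.44 FPKM in saline and 1.20 to 1.54 FPKM in StcE. Microglia and leukocyte markers summed to 19.4 to 21.7 FPKM in saline and 17.7 to 21.2 FPKM in StcE, nearly all of it *Cd68*, with *Ptprc* at or near 0, and astrocyte and neuron markers stayed at or below 0.120 FPKM.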

How the data were processed

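RNA of bEnd.3 cells was purified on poly-T beads and made into directional libraries. The authors aligned reads to mm10 (HISAT2 2.0.5), counted them per gene (featureCounts 1.5.0-p3) and used DESeq2 1.32.0, per the submitters' processing notes, and deposited FPKM per gene and sample. The annotation release and strand setting are not given in the sources used here. FPKM times GENCODE vM21 exon length gave whole fragments for 96.6% of values above 0 (within 0.02 fragments, or 0.1 above 1000 fragments).

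The 11062 genes that reached an average of 1 FPKM entered a limma 3.58.1 fit (R 4.3.3) of log2 FPKM, after a pseudocount of 1, with eBayes trend and no covariate, checked on simulated data. The fold changes understate those of low genes. Exact permutation tests were two-sided. Members, lists and the genes named were chosen with earlier results of these data known: all members, list genes past the threshold, up to 4 abundant others of each list, and the 5 genes most like *Id1* and *Smad6*. A total of 22 other settings were run. The result of 1 list gene that falls under this rule is not reported here.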

Additional observations from a re-analysis of the deposited data

Results flagged for a closer look

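The *Id2* level of saline replicate 4 stood apart from its group. It was 16.1 FPKM, whereas the other 4 saline samples lay between 19.7 and 20.9 FPKM, so that the gap took up 0.746 of the group's range, above the 95% critical value of Dixon's test. This was 1 sample flagged among 62 groups of 5 samples examined, where chance alone would flag about 3.1 (1 in 20). The same library was also the lowest saline sample for *Id1* and *Id3*, neither of which met the critical value.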

How the results depend on the processing

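Across the 22 alternatives, the direction of *Bmpr2*, *Id2*, *Id3*, *Smad7*, *Smad6*, *Smad1* and *Smad3* held in every fit. *Bmpr2* passed in 13 of them (adjusted p 0.00734 to 0.109) and *Id2* in 16 (0.000841 to 0.0833), whereas *Smad7* and *Id3* each passed in 4. *Smad4* ranged from -0.0161 (log2, without StcE replicate 2) to 0.0360 with a sample left out. *Id1* ranged from -0.0374 (without saline replicate 4) to 0.0684, and turned to -0.0086 with array weights and -0.0263 in the 8 samples whose replicate numbers both groups share, with and without the block. These 8 samples leave out saline replicate 4 and StcE replicate 6, so their fits are not separate from leaving out saline replicate 4. The number of members passing was 4 with voom on recovered fragments (*Bmpr2*, *Smad7*, *Id2* and *Id3*, beside 14.3% of 10445 genes), 1 with a mean FPKM minimum of 0.1 (*Id2*, beside 6.99%), 0 with no filter and 0 to 2 when a sample was left out. Of all genes, 801 passed with no filter and 793 to 1255 with a sample left out. Scaling to total fragments gave 628 lower of 1295 calls (48.5%) against 709 of 1320 (53.7%) as deposited, with a median log2 fold change over all genes of 0.0075. With the replicate block, 349 genes (3.15%), 1 member (*Id2*) and 9 pathway genes passed, against 885 genes (8%), 3 members (*Bmpr2*, *Id2* and *Id3*) and 17 pathway genes in the same 8 samples without it. Same-numbered samples did not deviate together (correlations of -0.10, -0.02, -0.03 and 0.05), and no sample correlated best with its own number. Whether same-numbered samples were handled together is not given in the sources, and these correlations cannot settle it. Covarying pairs past adjustment were 0 to 1 when a sample was left out, with 1 without saline replicate 1. By exact permutation, 4 members had p under 0.05 as deposited, and in alternatives added after the data were seen 4 did with a pseudocount of 0.1 and 3 with scaling to total fragments, beside 25.5%, 25.5% and 25.8% of all genes. *Bmpr1a*, at 14 to 40 fragments, limits what these libraries can show, and fragment intervals would cover counting error only. The causes were not tested.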

Other observations

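Of the 93 pathway genes, 64 reached the filter and 76 reached a mean FPKM of 0.1. Among those from 0.1 to under 1, 4 had groups that did not overlap. Of all 4962 genes in that range, 2.34% did not overlap. The pathway genes below were named after their values were seen. *Bmp6*, a BMP ligand made by endothelium, measured 0.995, 1.09, 0.828, 0.548 and 0.686 FPKM in saline and 0.305, 0.390, 0.311, 0.293 and 0.407 FPKM in StcE. Every StcE sample was below every saline sample, with 28 to 118 fragments behind each value, an exact two-sided permutation p of 0.00794 and, with the minimum lowered to a mean FPKM of 0.1, an adjusted limma p of 0.00717. *Nbl1*, which encodes a secreted BMP antagonist, had a mean of 0.275 FPKM in saline and 0.0872 FPKM in StcE, also without overlap, from 4 to 21 fragments a sample (adjusted p = 0.0199 from limma with the lowered minimum). *Tgfb3* had means of 0.669 and 0.490 FPKM without overlap (adjusted p = 0.0414 from limma with the lowered minimum). *Chrd*, which encodes the BMP antagonist chordin, had means of 0.863 and 0.745 FPKM without overlap, and did not pass (adjusted p = 0.131 from limma with the lowered minimum). The BMP antagonist gene *Nog* had means of 0.527 and 0.316 FPKM with overlapping groups and an exact two-sided permutation p of 0.0873.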
